A study of Mus musculus with 12 samples.

Results

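The Slc39a genes encode the ZIP family of zinc importers, and 10 of them were followed here across the mouse ileum: Slc39a1, Slc39a4, Slc39a5, Slc39a6, Slc39a7, Slc39a8, Slc39a9, Slc39a10, Slc39a11 and Slc39a14. They were taken by name from a list of family members, by matching the Ensembl identifiers of the count table to gene symbols, and they are 10 of the 14 Slc39a genes in the annotation and 10 of the 54838 genes in the table. All 10 passed the filter on low counts. C57BL/6J mice, used at 8 to 14 weeks of age, drank normal water or 25 mM ZnSO4 for 7 days, received an injection of PBS or of 200 µg dexamethasone (Dex, a synthetic glucocorticoid) in PBS, and were sampled 2 h later. There were 3 mice per group (water + PBS, water + Dex, ZnSO4 + PBS, ZnSO4 + Dex), so every mouse was injected and the PBS groups were the controls of the injection. The RNA came from the washed ileum as a whole and not from sorted cells.

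ZIP proteins move zinc into the cytosol, from outside the cell or from its own compartments, whereas the Slc30a family, the ZnT exporters, moves zinc the other way. In the small intestine Slc39a4 takes up dietary zinc at the apical, lumen-facing side of enterocytes, and loss of its human counterpart causes the zinc deficiency disease acrodermatitis enteropathica. Mouse Slc39a4 is known to be regulated by dietary zinc at the levels of RNA and protein, and its protein is removed from the apical membrane when zinc is plentiful. Slc39a5 lies at the basolateral side of enterocytes, Slc39a14 and Slc39a8 also carry manganese and iron, and Slc39a7 releases zinc from the endoplasmic reticulum and Golgi.

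Counts per library summed to between 10760132 and 11827487, with a median of 11388606, and the libraries showed the ileum they are labelled with: all 10 markers of enterocytes were detected in every group, among them Fabp6 and Slc10a2 of the ileal bile acid uptake. The summed level of these markers lay between 17038 and 20403 CPM (counts scaled to a common library size) in water + PBS, between 21636 and 25663 in water + Dex, between 17661 and 25628 in ZnSO4 + PBS, and between 12444 and 25037 in ZnSO4 + Dex, where replicate 2 was lowest. Markers of other cells were detected too. The 6 markers of T cells summed to 155 to 306 CPM in the 6 water libraries and to 66.8 to 92.4 CPM in the 6 ZnSO4 libraries. The 8 markers of B cells differed between replicates of a group by 5.59-fold to 39.8-fold. In these bulk samples, fewer cells of a type and less RNA per cell cannot be told apart. The labels number the mice of a group but say nothing of litters or cages, so p-values measure the spread between these samples only.

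Compared per length of exon (RPKM, counts scaled for exon length and library size), Slc39a4 was the most highly expressed of the 10 genes in water + PBS at 72.7 ± 3.57 RPKM (SD, n = 3). Slc39a5 followed at 54.7 ± 6.16 RPKM and Slc39a1 at 33.9 ± 1.15 RPKM. Slc39a9, with 21.7 ± 1.75 RPKM, and Slc39a11, with 19.2 ± 3.04 RPKM, came next, and their libraries overlapped. Slc39a14 stood at 9.70 ± 0.639 RPKM. The lowest 4 were Slc39a8 at 3.32 ± 0.670, Slc39a6 at 3.00 ± 0.707, Slc39a10 at 2.72 ± 0.159 and Slc39a7 at 1.84 ± 0.150 RPKM, and the libraries of Slc39a8 overlapped with those of Slc39a6, and those of Slc39a6 with those of Slc39a10. All other neighbours in this order were apart in every library. The order rests on the length used: with the longest transcript of each gene in place of all its exonic bases, Slc39a9 stood at 40.6 ± 3.27 RPKM, above Slc39a1 at 33.9 ± 1.15, the libraries of Slc39a14 (18.5 to 21.1 RPKM) overlapped with those of Slc39a11 (19.7 to 27.0 RPKM), and Slc39a8 at 6.04 ± 1.22 was apart from Slc39a6. Slc39a4 and Slc39a5 came first by either length.

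The level of Slc39a7 has a limit of its own. Of its 2584 exonic bases, 2084 (80.7%) lie on the same strand in exons of another annotated gene, Gm20427, and reads that fall on 2 genes can be left uncounted. Divided by the 500 bases that are its own, its level in water + PBS would be 9.52 ± 0.775 RPKM. Of the other members, Slc39a1 shared 27.7% of its 31-base stretches with other genes, among them the pseudogene Slc39a1-ps, and Slc39a9 overlapped Erh on the opposite strand over 4.52% of its exonic bases. Reads with more than 1 position were not counted by the authors.

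In water + Dex the order of the 10 levels per exonic length was the same as in water + PBS, with Slc39a4 at 92.1 ± 6.61 RPKM. In the ZnSO4 groups Slc39a4 was no longer first. It ranked 5 of 10 in ZnSO4 + PBS at 9.43 ± 1.31 RPKM, beside Slc39a14 at 8.36 ± 0.992 RPKM, and 6 of 10 in ZnSO4 + Dex at 8.21 ± 1.78 RPKM, and Slc39a5 was the highest member in both groups at 62.9 ± 4.38 and 61.9 ± 9.33 RPKM. The libraries of Slc39a4 and Slc39a14 overlapped in both ZnSO4 groups by this length. By the longest transcript they did not, with Slc39a4 ranking 6 of 10 at 10.6 ± 1.47 against 17.2 ± 2.05 RPKM in ZnSO4 + PBS and at 9.27 ± 2.02 against 19.96 ± 2.54 RPKM in ZnSO4 + Dex.

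**Figure D1:**
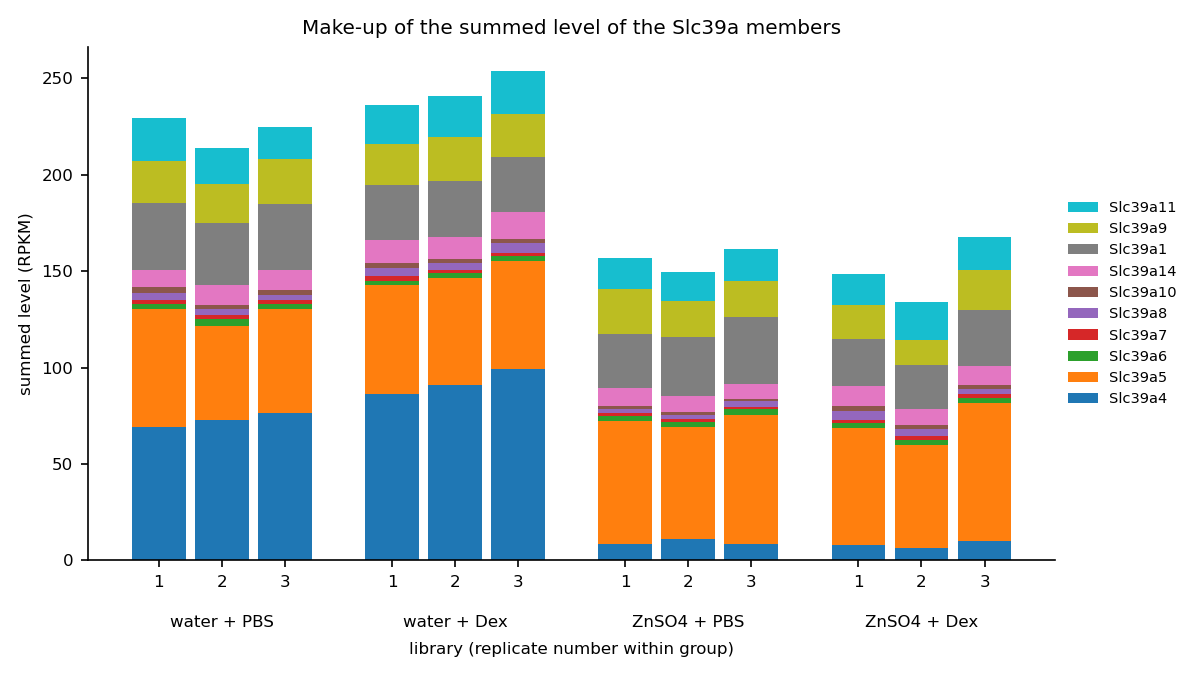
Stacked bars of the levels of the 10 genes (RPKM) in each of the 12 libraries, numbered by replicate within their group. The blue Slc39a4 segment made up 30.1 to 39.2% of the summed level in the 6 water libraries and 4.85 to 7.31% in the 6 ZnSO4 libraries, while the other segments together stayed between 127 and 160 RPKM in all 12.

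Summed over the 10 genes, the level was 223 ± 7.88 RPKM in water + PBS, 243 ± 9.08 in water + Dex, 156 ± 6.09 in ZnSO4 + PBS and 150 ± 16.9 in ZnSO4 + Dex. No ZnSO4 library reached the lowest water library. Slc39a4 gave 32.7 ± 2.20% of the sum in water + PBS, 37.8 ± 1.31% in water + Dex, 6.07 ± 1.08% in ZnSO4 + PBS and 5.43 ± 0.575% in ZnSO4 + Dex. By the longest transcript this share was 27.7 to 35.5% in the water libraries and 4.37 to 6.59% in the ZnSO4 libraries. The other 9 genes together summed to 150 ± 9.55, 151 ± 2.57, 147 ± 7.31 and 142 ± 15.2 RPKM in the same order of groups, and these ranges overlapped. The ratio of the apical Slc39a4 to the basolateral Slc39a5, in RPKM, was 1.34 ± 0.187 in water + PBS and 0.151 ± 0.0317 in ZnSO4 + PBS.

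To ask how zinc feeding changed each importer, raw counts were compared with edgeR's quasi-likelihood test over 15938 genes, with TMM normalisation in the fit. Genes with a Benjamini-Hochberg adjusted p under 0.05 were called. Values are given as normalised read counts (counts scaled to the mean library size after TMM normalisation). ZnSO4 against water was tested in PBS mice, in Dex mice and as the mean of both. Slc39a4 fell in all of these. In PBS mice 2 of the 10 members were called, Slc39a4 and Slc39a10, both lower, where 4.66% of all tested genes were called. In Dex mice only Slc39a4 was called, lower, against 4.37% of all genes. Over both injections Slc39a4, Slc39a10, Slc39a14 and Slc39a11 were called, all 4 lower, against 12.8% of all genes. Of the 10 log2 fold changes (LFC) over both injections, 8 were below 0, and their median was -0.28 against a median over all tested genes of -0.0046.

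Slc39a4 (ENSMUSG00000063354), the apical importer of enterocytes, lies at chr15:76612383-76617384 on the minus strand of GRCm38. It had 2447, 2570 and 2700 normalised read counts in the 3 water + PBS mice and 307, 387 and 307 in the 3 ZnSO4 + PBS mice. In Dex mice it had 3052, 3219 and 3514 counts with water and 286, 230 and 356 with ZnSO4. The highest ZnSO4 library held 387 counts and the lowest water library 2447, so that the 6 libraries of each kind were far apart. The LFC was -2.95 (SE 0.15, 95% CI -3.27 to -2.62, edgeR adjusted p = 4.6e-06) in PBS mice, a 7.70-fold lower level. It was -3.49 (SE 0.15, 95% CI -3.82 to -3.16, edgeR adjusted p = 9.1e-07) in Dex mice, an 11.2-fold lower level. Over both injections the LFC was -3.22 (SE 0.11, edgeR adjusted p = 3.9e-08), and an exact two-sided permutation test within injections gave p = 0.005, the smallest its 400 assignments allow. Leaving out any 1 of the 12 libraries moved this LFC between -3.30 and -3.15.

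The T cell markers were lower in the same ZnSO4 libraries, 5 of 6 of them called lower over both injections, and none of the 10 enterocyte markers was called there. Over both injections 3 of 6 goblet cell and 2 of 5 enteroendocrine markers were called higher, 2 of 4 plasma cell markers lower, 1 each of the stem cell and smooth muscle markers higher and 1 of the Paneth cell markers lower. Of all tested genes, 12.8% were called in this comparison. The summed T cell markers were at most 306 CPM, and whether they have a part in the fall of Slc39a4 was not tested. With the mean level of the enterocyte markers as a covariate, or that of the B cell markers, Slc39a4 was still called in every zinc comparison. No marker of these 2 lists was itself called for zinc in PBS mice, in Dex mice or over both. The T cell markers were not used as a covariate, so these fits cannot address their shift.

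**Figure D2:**
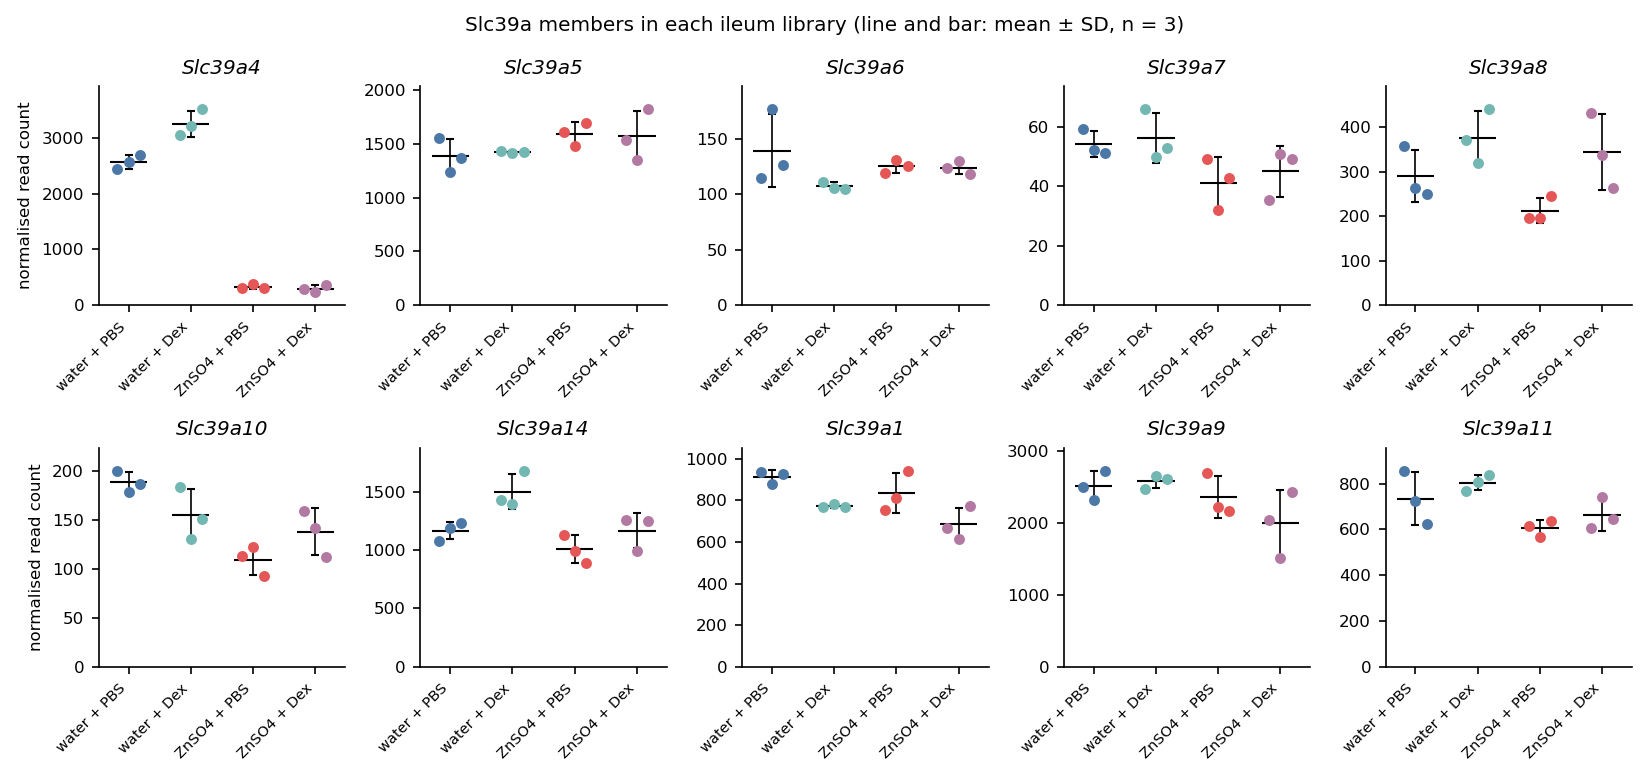
Normalised read counts of the 10 genes (y axes, each from 0) in the 4 groups. Each point is 1 mouse, the line is the mean and the bar is the SD (n = 3). Slc39a4 is the member in which no ZnSO4 library reaches a water library, at 387 counts or fewer against 2447 or more.

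Among all tested genes, 4.99% had no overlap between the 6 water and the 6 ZnSO4 libraries in either direction. Slc39a4 was the only one of the 10 members with none. For 3 against 3 libraries this share was not counted, so a lack of overlap within 1 injection only describes the values. Slc39a10 (ENSMUSG00000025986, chr1:46807544-46892852, minus strand of GRCm38), an importer of the plasma membrane, was the other member called in PBS mice. It had 200.4, 179 and 187 counts in water + PBS, and 113, 123 and 92.6 in ZnSO4 + PBS, which did not overlap. In Dex mice it had 184, 131 and 151 counts with water and 160, 142 and 112 with ZnSO4, which overlapped. The LFC was -0.79 (SE 0.17, edgeR adjusted p = 0.023) in PBS mice and -0.17 (SE 0.17, edgeR adjusted p = 0.63) in Dex mice. Over both injections it was -0.48 (SE 0.12, edgeR adjusted p = 0.022). The call in PBS mice was lost without water + PBS replicate 1 or 3 or ZnSO4 + PBS replicate 1 or 3, where the adjusted p was 0.089, 0.055, 0.072 and 0.094. The call over both injections was lost without water + PBS replicate 1, water + Dex replicate 1 or ZnSO4 + PBS replicate 3, where it was 0.052, 0.055 and 0.053.

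Slc39a14 and Slc39a11 were called over both injections by a small margin. Slc39a14 (ENSMUSG00000022094), which also carries manganese and iron, had 1080, 1191 and 1228 counts in water + PBS and 1130, 993 and 892 in ZnSO4 + PBS. It had 1426, 1397 and 1676 counts in water + Dex and 1253, 993 and 1246 in ZnSO4 + Dex. The groups overlapped in PBS mice and not in Dex mice, and the LFC over both was -0.29 (SE 0.08, edgeR adjusted p = 0.040). Slc39a11 (ENSMUSG00000041654), the family's member of the GufA branch, had 855, 723 and 623 counts in water + PBS and 613, 565 and 636 in ZnSO4 + PBS. It had 769, 806 and 836 counts in water + Dex and 607, 740 and 644 in ZnSO4 + Dex. Its LFC was -0.28 (SE 0.11) in each kind of mice, with adjusted p of 0.19 and 0.21, and -0.28 (SE 0.08, edgeR adjusted p = 0.041) over both. In PBS mice it was -0.14 without water + PBS replicate 1 (adjusted p = 0.53) and -0.38 without water + PBS replicate 3 (adjusted p = 0.085). Of 20 alternative settings, each of which changed 1 choice or left out 1 library, 12 ended the call of Slc39a14 and 13 that of Slc39a11, with adjusted p of up to 0.11 and 0.097. For Slc39a14 these include the enterocyte marker covariate (LFC -0.19, adjusted p = 0.055) and the B cell marker covariate (LFC -0.28, adjusted p = 0.053), under both of which Slc39a11 was called. Neither gene was called in the fit that blocked on replicate number (adjusted p = 0.055 and 0.069). The single libraries without which Slc39a14 was not called were all 3 of water + PBS, all 3 of water + Dex, ZnSO4 + PBS replicates 2 and 3, and ZnSO4 + Dex replicate 2. For Slc39a11 they were water + PBS replicates 1 and 2, all 3 of water + Dex, all 3 of ZnSO4 + PBS, and ZnSO4 + Dex replicates 1 and 3.

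The transcription factor Mtf1, which senses zinc, binds metal response elements, whose core is TGCACNC or TGCGCNC. RefSeq promoter windows for GRCm38.p6 were matched for 7 of the 10 members (not Slc39a4, Slc39a6 or Slc39a14), and the 250 bases before each annotated start were searched on both strands. The core was in windows of Slc39a5, Slc39a8 and Slc39a11, and in none of those of Slc39a1, Slc39a7, Slc39a9 and Slc39a10. The first start of Slc39a10, chr1:46925776, lies beyond the end of the gene as annotated here (46892852). All 250 bases before its other start, chr1:46853618, lie in annotated exons, as do those of Slc39a9. Bases after the starts were not searched, and a gene without a core in these windows can hold one elsewhere. Of all 32851 windows, 21.4% held at least 1 core, so that a match is common, and a match describes the letters and not a bound site. Of the members called for zinc, Slc39a10 and Slc39a11 had windows. Both windows of Slc39a11 held 1 core on the opposite strand and are shown 5′ to 3′ with the core in capitals. They lie at chr11:113650093-113650342 and chr11:113565816-113566065, both on the minus strand.
Slc39a11, first start: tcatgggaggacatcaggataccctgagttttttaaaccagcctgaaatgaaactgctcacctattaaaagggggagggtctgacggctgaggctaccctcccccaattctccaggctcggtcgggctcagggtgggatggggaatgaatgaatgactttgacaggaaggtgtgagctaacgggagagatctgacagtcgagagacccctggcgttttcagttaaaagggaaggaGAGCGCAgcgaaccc
Slc39a11, other start: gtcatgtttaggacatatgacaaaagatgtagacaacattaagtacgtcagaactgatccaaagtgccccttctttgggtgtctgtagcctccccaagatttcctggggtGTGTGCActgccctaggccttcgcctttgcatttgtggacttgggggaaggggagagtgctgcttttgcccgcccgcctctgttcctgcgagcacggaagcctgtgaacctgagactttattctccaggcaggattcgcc
The core lay 15 to 9 bases before the first start and 140 to 134 bases before the other.

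The other 6 members passed the threshold in none of the zinc comparisons. Slc39a5, the basolateral importer that was highest in the ZnSO4 groups, had 1240 to 1551 counts in water + PBS and 1477 to 1698 in ZnSO4 + PBS, and its LFC over both injections was 0.17 (95% CI -0.00027 to 0.34, edgeR adjusted p = 0.18). Slc39a6 had 115 to 177 counts in water + PBS and 119 to 131 in ZnSO4 + PBS, with an LFC over both of 0.03 (95% CI -0.20 to 0.26). Slc39a7 had 51.3 to 59.4 counts in water + PBS and 32.0 to 49.0 in ZnSO4 + PBS, which did not overlap, and an LFC over both of -0.36 (95% CI -0.67 to -0.04, edgeR adjusted p = 0.13). Gm20427, which overlaps it, had 0 to 2 reads per library.

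Slc39a8, a carrier of zinc, manganese and iron, had 249.9 to 357 counts in water + PBS and 196 to 245 in ZnSO4 + PBS, which did not overlap, with an LFC of -0.45 (95% CI -0.88 to -0.01, edgeR adjusted p = 0.24) in PBS mice and -0.29 (adjusted p = 0.20) over both. Without water + PBS replicate 1 these were -0.25 (adjusted p = 0.57) and -0.19 (adjusted p = 0.40). Slc39a1, an importer of the plasma membrane, had an LFC over both of -0.15 (95% CI -0.30 to -0.0037, adjusted p = 0.17). Slc39a9, found in the Golgi and at the plasma membrane, had one of -0.23 (95% CI -0.46 to -0.0041, adjusted p = 0.17), and its lowest library, with 1516 counts, was ZnSO4 + Dex replicate 2, the library with the lowest enterocyte markers. Its LFC over both was -0.31 without ZnSO4 + Dex replicate 3, when it was called (adjusted p = 0.0496), -0.15 without replicate 2 of that group (adjusted p = 0.23) and -0.11 with the enterocyte markers as a covariate (adjusted p = 0.35). A miss of the threshold does not show that these 6 did not change, and the intervals give the sizes that remain possible.

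**Figure D3:**
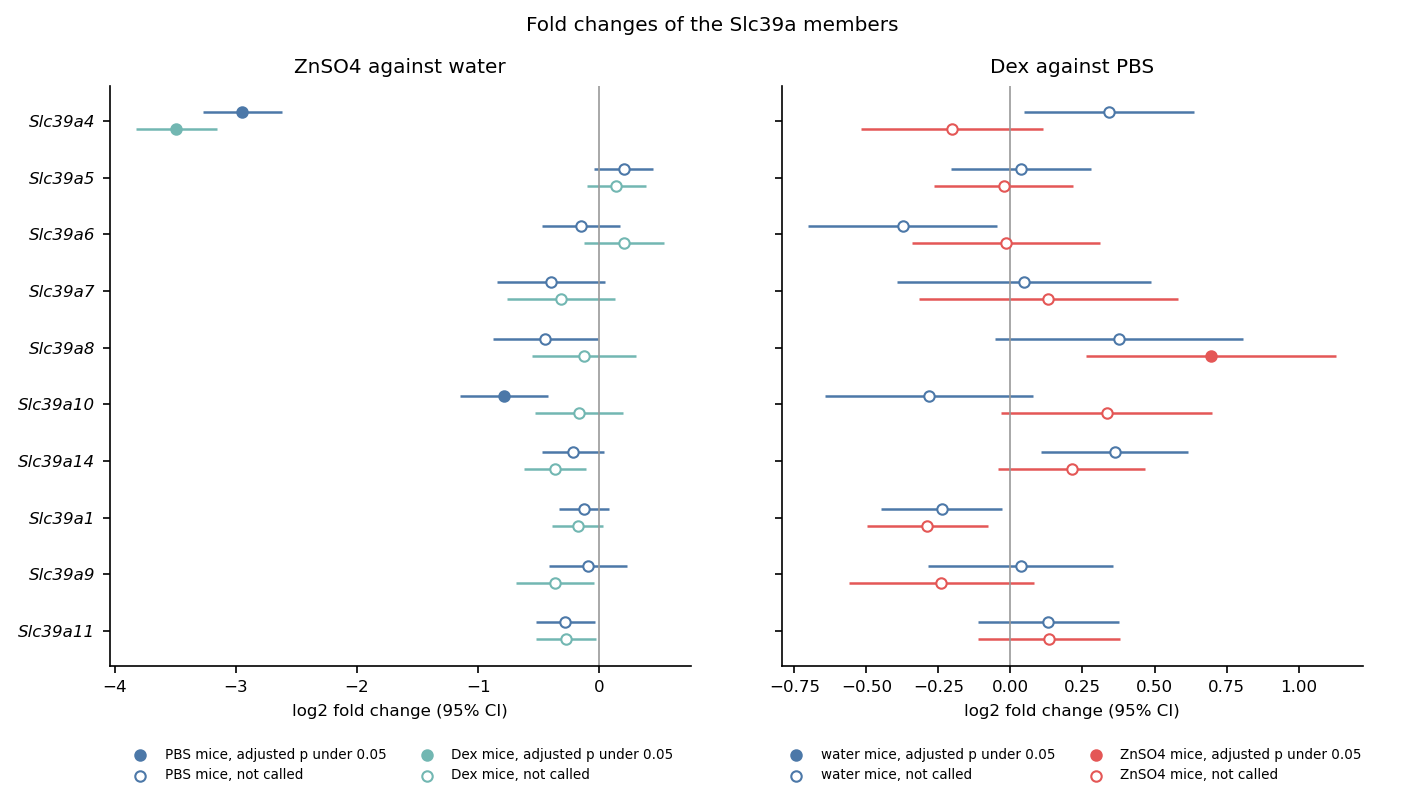
LFC with 95% CI of the 10 genes for ZnSO4 against water (left, in PBS and in Dex mice) and Dex against PBS (right, in water and in ZnSO4 mice). Filled points have an adjusted p under 0.05. Slc39a4 lies near -3 for zinc, and every other estimate in the plot lies between -0.79 and 0.70.

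Dex against PBS was tested in the same way, in water mice, in ZnSO4 mice and as the mean of both. Over both kinds of water Slc39a8 and Slc39a14 rose and Slc39a1 fell, 3 of 10 members, where 21.5% of all tested genes were called. In water mice none of the 10 was called by edgeR (4 at an unadjusted p under 0.05, 1 by DESeq2), against 9.93% of all genes. In ZnSO4 mice 1 was called, Slc39a8, higher, against 13.7% of all genes. None of the 10 members separated the 6 PBS from the 6 Dex libraries without overlap, as 9.75% of all genes did. The share for 3 against 3 libraries was not counted here either. A lack of overlap within 1 kind of water therefore only describes the values. The groups compared in water and in ZnSO4 mice share no libraries, but both comparisons came from 1 fit with a shared estimate of the spread. The means over both use the same libraries again.

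Slc39a8 (ENSMUSG00000053897) had 357, 263 and 249.9 counts in water + PBS and 371, 319 and 440 in water + Dex. It had 196, 197 and 245 counts in ZnSO4 + PBS and 432, 337 and 264 in ZnSO4 + Dex. The ranges overlapped in water mice and not in ZnSO4 mice. The LFC of Dex was 0.38 (SE 0.20, edgeR adjusted p = 0.29) in water mice, 0.70 (SE 0.20, edgeR adjusted p = 0.037) in ZnSO4 mice and 0.54 (SE 0.14, edgeR adjusted p = 0.017) over both. The rise over both was lost in 1 of 20 alternatives, without water + Dex replicate 3 (adjusted p = 0.053). The rise in ZnSO4 mice was lost in 7 of 21, with adjusted p of up to 0.15: without water + Dex replicate 1, ZnSO4 + PBS replicate 1 or 2, or ZnSO4 + Dex replicate 1 or 2, with only the groups compared in the fit (LFC 0.68, adjusted p = 0.067), and with the B cell markers as a covariate (LFC 0.52, adjusted p = 0.061). The B cell markers summed to 89.7, 462 and 11.6 CPM in ZnSO4 + PBS and to 11.9, 16.3 and 66.6 CPM in ZnSO4 + Dex.

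Slc39a14 had an LFC of Dex of 0.36 (SE 0.12, edgeR adjusted p = 0.077) in water mice, where its libraries did not overlap, and 0.21 (SE 0.12, adjusted p = 0.29) in ZnSO4 mice, where they did. In water mice it was called by DESeq2 (adjusted p = 0.049), with only the groups compared in the fit (0.048) and without ZnSO4 + Dex replicate 2 (0.037). Over both the LFC was 0.29 (SE 0.08, edgeR adjusted p = 0.027), about the size of its fall with zinc, and its mean in ZnSO4 + Dex, 1164 ± 148 counts, stood beside 1166 ± 76.9 in water + PBS. The call over both was lost without water + PBS replicate 1, water + Dex replicate 3, ZnSO4 + PBS replicate 2 or 3, or ZnSO4 + Dex replicate 1 or 3, with adjusted p of up to 0.092.

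Slc39a1 (ENSMUSG00000052310) had 937, 879 and 926 counts in water + PBS and 768, 785 and 770 in water + Dex. It had 754, 814 and 942 counts in ZnSO4 + PBS and 666, 617 and 773 in ZnSO4 + Dex. The ranges did not overlap in water mice and overlapped in ZnSO4 mice. The LFC of Dex was -0.24 (SE 0.10, edgeR adjusted p = 0.16) in water mice, -0.29 (SE 0.10, adjusted p = 0.071) in ZnSO4 mice and -0.26 (SE 0.07, edgeR adjusted p = 0.016) over both, and the last was called in all 20 alternative fits, though its size is under the study's cut-off of 0.8. It was also called in water mice with only the groups compared in the fit (adjusted p = 0.043) and in ZnSO4 mice without ZnSO4 + Dex replicate 3 (adjusted p = 0.022). The pseudogene Slc39a1-ps, with which part of its sequence is shared, had means of 27.0 and 13.0 counts in water + PBS and water + Dex, and of 21.0 and 19.5 in ZnSO4 + PBS and ZnSO4 + Dex.

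Slc39a4 had an LFC of Dex of 0.34 (SE 0.13, edgeR adjusted p = 0.15) in water mice, where the lowest Dex library (3052 counts) lay above the highest PBS library (2700 counts), and of -0.20 (SE 0.14, adjusted p = 0.43) in ZnSO4 mice, where the libraries overlapped. With only the 2 water groups in the fit, the LFC in water mice was the same at 2 decimals and the adjusted p was 0.028. The summed enterocyte markers were also higher in water + Dex than in water + PBS without overlap. With their level as a covariate the LFC was 0.25 (adjusted p = 0.25). Of the 10 enterocyte markers, 1 was itself called higher with Dex in water mice, against 9.93% of all genes. The covariate differed between the groups compared, so this fit cannot separate the 2 shifts. Of the other members, Slc39a6 had an LFC of Dex of -0.37 (SE 0.15, adjusted p = 0.16) in water mice, with no overlap between 105 to 112 counts in water + Dex and 115 to 177 in water + PBS, and -0.02 in ZnSO4 mice. Its water + PBS mice had 115, 177 and 126 counts, and without replicate 2, the highest, the LFC in water mice was -0.17 (adjusted p = 0.49). Slc39a5, Slc39a7, Slc39a9, Slc39a10 and Slc39a11 had LFCs over both kinds of water between -0.10 and 0.13, none of them called.

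Whether zinc and Dex acted other than additively was tested as an interaction, the LFC of zinc in Dex mice minus that in PBS mice. None of the 15938 genes was called by edgeR (0% of all genes, 794 genes at an unadjusted p under 0.05), and the lowest adjusted p was 0.95. Slc39a4 (-0.54, SE 0.20, unadjusted p = 0.018) and Slc39a10 (0.62, SE 0.24, unadjusted p = 0.023) were the members with an unadjusted p under 0.05, and DESeq2 called no member. The interaction of Slc39a10 was not called (edgeR adjusted p = 0.95), so its zinc effects in PBS and in Dex mice were not called different. Against the mice that received neither, ZnSO4 + Dex mice had 2 members called, both lower, where 23.3% of all genes were called: Slc39a4 with an LFC of -3.15 (SE 0.15, edgeR adjusted p = 2.1e-07) and Slc39a1 with -0.42 (SE 0.10, edgeR adjusted p = 0.0092). Slc39a10 had an LFC of -0.45 (SE 0.17, adjusted p = 0.072), and of -0.46 (adjusted p = 0.049) with the replicate block, and Slc39a14 one of -0.0028 (SE 0.12). Slc39a9 had one of -0.33 (SE 0.15, adjusted p = 0.13) there. It was -0.50 without ZnSO4 + Dex replicate 3 (adjusted p = 0.027), -0.17 without replicate 2 of that group (adjusted p = 0.32) and -0.29 with the enterocyte markers as a covariate (adjusted p = 0.043).

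The remaining members of the Slc39a family did not pass the test in any comparison. Slc39a3, a plasma membrane importer, stood at 296 ± 3.51 counts in water + PBS, 298 ± 13.3 in water + Dex, 308 ± 12.1 in ZnSO4 + PBS and 281 ± 27.4 in ZnSO4 + Dex. Slc39a13, of the Golgi, had an LFC of -0.05 (SE 0.15) for zinc over both injections. Slc39a2 with 1 to 9 reads per library and Slc39a12 with 0 to 3 were too low to be tested.

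Among the zinc exporters, 8 of 10 Slc30a genes were tested. For zinc in PBS mice 1 rose and none fell, and over both injections 1 rose and 2 fell. Of all tested genes, 4.66% and 12.8% were called in these comparisons. The one that rose in each was Slc30a2, which loads zinc into vesicles: it stood at 620 ± 145 counts in water + PBS and at 1914 ± 349 in ZnSO4 + PBS, with an LFC over both of 1.60 (SE 0.13, edgeR adjusted p = 2.8e-05). Slc30a5 and Slc30a7, which supply the secretory pathway, had an LFC of -0.21 (SE 0.05, adjusted p = 0.025) and -0.23 (SE 0.06, adjusted p = 0.025). Slc30a1, the basolateral exporter, had one of 0.0087 (SE 0.13, adjusted p = 0.98). For Dex over both kinds of water, Slc30a10, which exports manganese, rose by an LFC of 1.19 (SE 0.26, adjusted p = 0.0067), and Slc30a1 had an LFC of -0.47 (SE 0.13, adjusted p = 0.026). Slc30a10 had 474 to 592 counts in water + PBS and 934 to 1163 in water + Dex, which did not overlap. In ZnSO4 mice it had 233 to 399 counts with PBS and 371 to 1454 with Dex, which overlapped.

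The metallothioneins bind zinc in the cytosol and are induced by it through the transcription factor Mtf1. Mt1 had 680 ± 181 counts in water + PBS, 1204 ± 151 in water + Dex, 18834 ± 5952 in ZnSO4 + PBS and 25743 ± 2222 in ZnSO4 + Dex. Its LFC of zinc over both injections was 4.60 (SE 0.20, edgeR adjusted p = 2.6e-07), and that of Mt2 was 5.22 (SE 0.26, edgeR adjusted p = 8.5e-07). Reads of Mt1 per read of Slc39a4 were 0.267 ± 0.0831 in water + PBS, 0.368 ± 0.0202 in water + Dex, 58.7 ± 24.0 in ZnSO4 + PBS and 92.6 ± 27.9 in ZnSO4 + Dex. Within ZnSO4 + PBS, replicate 2 had the lowest ratio, 30.9, with the most Slc39a4 reads (387 normalised counts) and the fewest of Mt1 (11969). Within water + Dex it ran the other way: replicate 3 had the most of both, 3514 counts of Slc39a4 and 1376 of Mt1.

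**Figure D4:**
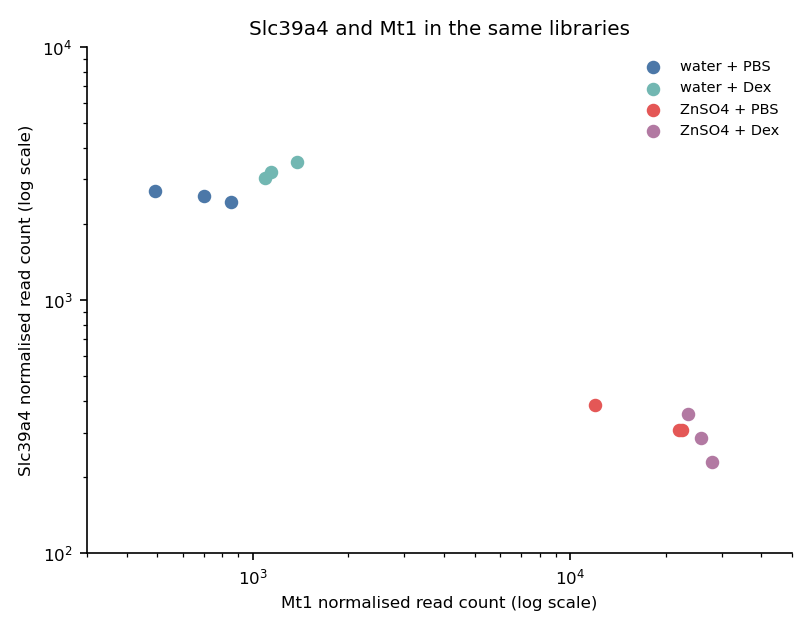
Slc39a4 against Mt1 in the 12 libraries, both in normalised read counts on log axes, 1 point per mouse. The 6 ZnSO4 libraries lie at the lower right, with 387 or fewer Slc39a4 and 11969 or more Mt1 counts, and the 6 water libraries at the upper left.

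Of 9 listed transcription factors, 2 were called lower for zinc over both injections and 0 higher, against 12.8% of all tested genes. Klf4, a factor known to act on the mouse Slc39a4 gene under zinc deficiency, was not called there. It had 3377 ± 481 counts in water + PBS and 3161 ± 275 in ZnSO4 + PBS. Mtf1 stood at 607 ± 5.79 and 554 ± 26.0 counts and was not called there either. In Dex mice Klf4 had 2434 to 2794 counts with water and 1644 to 2287 with ZnSO4, and Mtf1 523 to 562 and 359 to 516. Hif1a had 931 ± 96.7 counts in water + PBS and 596 ± 77.8 in ZnSO4 + PBS, and Stat3 2308 ± 246 and 1804 ± 35.6. In Dex mice Hif1a had 649 ± 57.9 counts with water and 455 ± 31.6 with ZnSO4, and Stat3 1966 ± 19.9 and 1375 ± 250. For Dex over both kinds of water, 4 of these 9 factors were called lower and 0 higher, against 21.5% of all tested genes. Nr3c1, which encodes the glucocorticoid receptor, had 2873 ± 146 counts in water + PBS and 1482 ± 124 in water + Dex. It had 2999 ± 138 counts in ZnSO4 + PBS and 1202 ± 50.2 in ZnSO4 + Dex. Of 6 carriers in a list for iron, manganese and copper, 2 fell with zinc over both injections, against 12.8% of all tested genes. The 2 were the iron exporter Slc40a1 (LFC -0.72, SE 0.10, edgeR adjusted p = 0.00083) and the folate and heme carrier Slc46a1 (LFC -0.51, SE 0.15, edgeR adjusted p = 0.044). With Dex over both kinds of water 1 of the 6 rose, Slc30a10, and 2 fell, Slc40a1 (LFC -0.95, SE 0.10) and the iron importer Slc11a2 (LFC -0.66, SE 0.08). Of all tested genes, 21.5% were called in that comparison.

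The genes whose log2 CPM ran most like that of Slc39a4 over the 12 libraries were Upp1 (Pearson r = 0.978), Meltf (0.977), Acta1 (0.972), Il18bp (0.972) and Smpdl3a (0.971). For Slc39a10 the closest was Abce1 (r = 0.958), for Slc39a14 Card14 (0.974), for Slc39a11 Snd1 (0.967), for Slc39a8 Shisal2b (0.943) and for Slc39a1 Lrrc42 (0.946). These values were taken over all 4 groups with the group means left in, so differences between treatments enter them. They describe the libraries, which share tissue and preparation. No other member of the 10 was among the 5 closest genes of any member shown.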

How the data were processed

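Ileum RNA of 12 C57BL/6J mice, 3 in each of 4 groups set by the sample labels, was analysed from the deposited table of raw counts. According to the study's methods and the submitters' processing notes, the authors prepared stranded libraries (TruSeq, single-end), trimmed reads (Trimmomatic), mapped them to mm10 (GRCm38) with HISAT2 2.0.4 and counted them with featureCounts into the deposited counts per gene, from which multiply mapped reads are absent. The annotation release and the strand setting are not given in the sources used here, so reads of overlapping genes cannot be assigned with certainty. No columns besides the 12 libraries were present. Symbols and positions were matched for 54809 of 54838 identifiers from GENCODE M21, and exon lengths are the union of a gene's exons, with the longest transcript as an alternative.

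Analyses used R 4.3.3, edgeR 4.0.16, limma 3.58.1 and DESeq2 1.42.0, and figures Python. filterByExpr by group (minimum count 10) left 15938 genes, which held 99.8% of all counts. After TMM normalisation, edgeR's quasi-likelihood fit estimated a mean for each of the 4 groups, and p-values were adjusted over all 15938 genes. Normalised counts are scaled to the mean effective library size of 11396844. SEs were derived from the LFC and its F statistic, and intervals cover 95%. Totals of 10760132 to 11827487 counts per library limit genes with few reads. Replicates differed by more than counting error (chi-square per degree of freedom 8.30 to 45.3), so no pair looked like 1 library deposited again. Permutation tests used log2(CPM + 1) over all 400 assignments of mice within injections or waters.

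The genes named were the 10 members, the other 4 Slc39a genes, 10 Slc30a exporters by counts, zinc-response genes, known factors, metal carriers, and for each member called in the zinc or Dex comparisons the 5 genes most correlated with it. Markers of 10 cell types were listed. The members and lists were chosen with earlier results of these data known. Alternatives were DESeq2, RLE and upper-quartile factors, 2 other count filters, the replicate block, only the groups compared, a B cell or enterocyte marker covariate, the study's LFC cut-off of 0.8, unadjusted p, and leaving out each library. The scripts were tested on simulated data.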

Additional observations from a re-analysis of the deposited data

How the results depend on the processing

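The fall of Slc39a4 with zinc in PBS mice, in Dex mice and over both injections, and the fall of Slc39a1 with Dex over both kinds of water, kept their call under every alternative fit and with any 1 library left out, though Slc39a1 does not reach the LFC cut-off of 0.8. The fall of Slc39a4 over both injections on the log2(CPM + 1) scale was -3.18, it was -3.23 with a pseudocount of 0.1 and lay between -3.26 and -3.11 with 1 library left out. The numbers of members called were less stable, since several adjusted p lay close to 0.05. With the LFC cut-off of 0.8, 1 member was called for zinc in PBS mice, 1 over both injections, 0 for Dex in ZnSO4 mice, 0 for Dex over both kinds of water and 1 for zinc with Dex against neither. At an unadjusted p under 0.05 the numbers were 4 for zinc in PBS mice, 4 in Dex mice, 7 over both injections, 4 for Dex in water mice, 2 in ZnSO4 mice, 4 for both treatments against neither and 2 for the interaction. With only the groups compared in the fit, 3 members were called for Dex in water mice and 0 in ZnSO4 mice. DESeq2 called 1 for Dex in water mice, and the B cell marker covariate left 0 for Dex in ZnSO4 mice. With 1 library left out, the numbers ran from 1 to 2 for zinc in PBS mice, 1 to 1 in Dex mice, 1 to 4 over both injections, 0 to 1 for Dex in water mice, 0 to 2 in ZnSO4 mice, 1 to 3 over both kinds of water, 2 to 3 for both treatments against neither and 0 to 0 for the interaction. With the replicate block, 2 members instead of 4 were called for zinc over both injections, and 3 instead of 2, with Slc39a10 added, for both treatments against neither. Samples with the same replicate number did not deviate together (3 of 18 pairs had a correlation above 0.1, and 4 of 12 libraries correlated best with their own number). With 3 mice per group, this cannot exclude a cage or batch shared by number. Signs turned for estimates near 0: Slc39a5 for Dex over both kinds of water (0.0068) was -0.0024 with upper-quartile factors, -0.0011 with every gene of at least 1 count, -0.022 and -0.0097 with the B cell and enterocyte covariates, and -0.054 to 0.056 with 1 library left out. With 1 library left out, Slc39a6 for zinc over both injections ran from -0.023 to 0.13, and for Dex over both kinds of water Slc39a4 from -0.016 to 0.14 and Slc39a10 from -0.044 to 0.090. The causes were not tested. The low counts of Slc39a7 leave its interval wide.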
